A study of Mus musculus with 1507 samples.

Results

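Single ES cells that had been exposed to dexamethasone for 12 h were split by their level of *Sox17*. The 91 cells with a column in the transcript table were ranked by *Sox17* TPM (a length-corrected level scaled to the same sum in every cell, summed over the transcripts of the gene), and the 30 highest (Sox17-high cells), the 31 in between (Sox17-middle) and the 30 lowest (Sox17-low) were compared. The groups were therefore defined by a measured value, and every difference between them is given as a description, without a test. The series holds 1507 samples of the mouse line 5G6GR, of which 456 are single cells of the time course analysed here (92, 91, 93, 87 and 93 cells at 0, 12, 24, 48 and 72 h). 5G6GR was derived from EB5 ES cells by random integration of a vector for a fusion of *Gata6* with the ligand-binding part of the glucocorticoid receptor, and cells of every time point carry it, the untreated 0 h cells included. Cells from 12 h onwards received dexamethasone (DEX in the labels) in place of blasticidin, all cells were sorted with a MoFlo instrument without selection for a cell cycle phase, and libraries were made by RamDA-seq, which primes total RNA of a cell with oligo-dT and not-so-random primers. The labels name no separate cultures at 12 h, so the cells count as 1 sample and the spread over cells is not a replicate error. A further 384 cells, from 4 plates of ES and primitive endoderm cells, were used in a later comparison.

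Primitive endoderm is the extraembryonic lineage that separates from the pluripotent epiblast in the blastocyst and later gives visceral and parietal endoderm. GATA6 stands early in its gene network, followed by GATA4 and the HMG-box factors SOX17 and SOX7, while FGF signalling from epiblast cells favours the lineage and NANOG opposes it. SOX17 is a transcription factor of the SOX F group that is used as a marker of primitive and definitive endoderm, and forced GATA6 activity is known to turn ES cells into primitive endoderm-like cells.

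*Sox17* (chromosome 1, 4490931 to 4497354 in mm10, minus strand) was near absent before treatment, with 3 of 92 cells at 0 h above 0 and a highest value of 2.65 TPM. At 12 h, it ranged from 0 to 141 TPM with a median of 29.2 TPM. The Sox17-high cells held 45.99 to 141 TPM with a median of 70.6 TPM, the Sox17-middle cells 9.67 to 45.7 TPM with a median of 29.2 TPM, and the Sox17-low cells 0 to 8.49 TPM with a median of 1.19 TPM. The last Sox17-high cell had 45.99 TPM and the next cell outside it 45.7 TPM, whereas the last Sox17-middle cell had 9.67 TPM and the first Sox17-low cell 8.49 TPM, so neither border lies in a gap of the distribution. *Sox17* was listed at 0 in 9 cells, all of them Sox17-low. Medians at 24, 48 and 72 h were 75.2, 82.2 and 98.0 TPM, and 1, 2 and 0 cells were listed at 0, so the cells at 12 h span nearly the range between the untreated state and the level of later times.

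**Figure D1:**
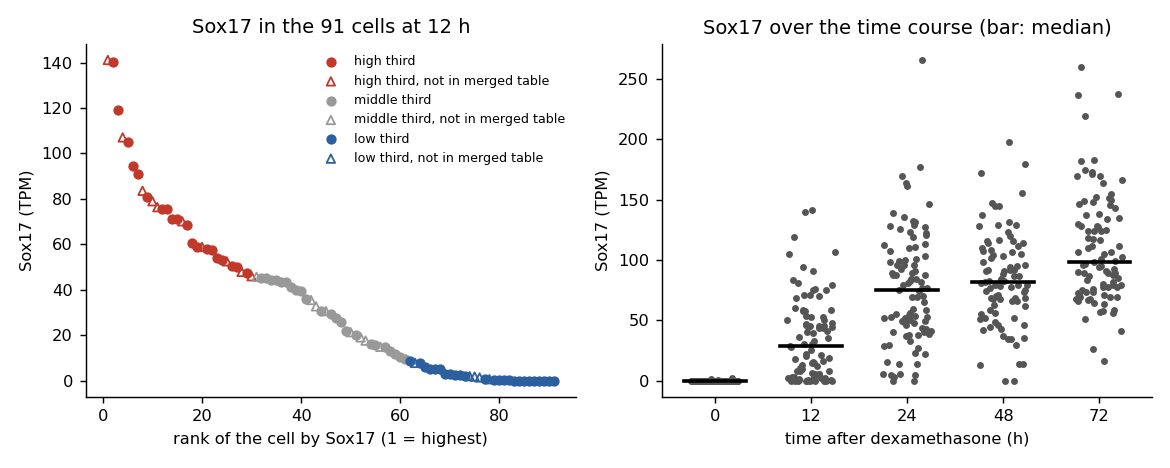
*Sox17* in TPM for each of the 91 cells at 12 h by rank (left; open triangles mark cells without a column in the merged table) and for each cell by time in h (right; bars are medians). The 12 h cells run from 141 TPM to 0 with no gap at either group border, and the median is 29.2 TPM at 12 h against 75.2 TPM at 24 h.

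Of the annotated *Sox17* transcripts, *Sox17-006* took 51.1% of the summed *Sox17* TPM of the 91 cells, *Sox17-002* 29.7%, *Sox17-005* 13.03% and *Sox17-001* 4.00%. In Sox17-high cells, median levels were 33.6 TPM for *Sox17-006*, 19.1 TPM for *Sox17-002*, 9.74 TPM for *Sox17-005* and 2.75 TPM for *Sox17-001*. The retained-intron transcript *Sox17-008* held 1.15% of the *Sox17* TPM of Sox17-high cells. These transcripts overlap, so their shares are estimates of the quantification tool.

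The label of the cells was checked with marker genes. At 12 h, some genes of both programmes were detected in every group. *Pou5f1*, the ES cell factor OCT4, had medians of 183, 187 and 207 TPM in Sox17-high, Sox17-middle and Sox17-low cells. *Lama1*, the laminin alpha chain of the endoderm basement membrane, had 263, 236 and 160 TPM. Other ES cell markers were less evenly kept. *Nanog* reached 1 TPM in 16 of 30, 22 of 31 and 26 of 30 cells of these groups. For *Sox2* the counts were 26 of 30, 24 of 31 and 30 of 30, and for *Esrrb* 30 of 30, 30 of 31 and 30 of 30. *Gata6* had medians of 84.5, 63.03 and 44.8 TPM. Its single annotated transcript does not let reads of the fusion gene be told apart from those of the endogenous gene, and untreated cells already had a median of 43.3 TPM. Markers of other cells were low in all groups: the summed level of 8 mesoderm and primitive streak markers had medians of 1.20 TPM (range 0 to 5.55 TPM) in Sox17-high and 0.977 TPM (0 to 5.85 TPM) in Sox17-low cells, that of 8 trophectoderm markers 2.26 TPM (0.533 to 18.9 TPM) and 3.44 TPM (0.902 to 19.9 TPM), that of 8 neural markers 8.07 TPM (0.748 to 34.02 TPM) and 9.12 TPM (0.461 to 62.9 TPM), and that of the 8 listed 2-cell-like markers at most 3.27 TPM in any cell. The fibroblast list summed to 121 TPM (38.4 to 421 TPM) and 142 TPM (57.2 to 283 TPM), nearly all of it *Fn1*, a gene that ES cells also express, while 3 of its 8 genes were at 0 in every cell.

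A second deposited table, on merged gene models, holds only 68 of the 91 cells at 12 h, against 90 of 92, 90 of 93, 82 of 87 and 91 of 93 at 0, 24, 48 and 72 h. The 23 others had a median of 11687 genes that reached 1 TPM, against 13826.5 in the 68, and 58295 against 40035 TPM of the rRNA gene *Rn18s-rs5*. They made up 10 of 30 Sox17-high, 8 of 31 Sox17-middle and 5 of 30 Sox17-low cells. Median genes per cell were 13500, 13625 and 13823.5 in these 3 groups, and mitochondrial genes took a median of 3.89%, 4.06% and 4.42% of TPM. Over the 91 cells, the Spearman coefficient of *Sox17* was -0.20 with the number of genes and -0.22 with the mitochondrial share. Values for the 68 cells, ranked anew into 22 highest and 22 lowest, are therefore given beside the main results. The part of these measures in the differences below was not tested.

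Next, all genes were compared between Sox17-high and Sox17-low cells as the difference of mean log2(TPM + 1), with genes counted as higher or lower at a difference of at least 1, which is 2-fold on this scale and understates folds of genes at low level. Of 8948 genes with a mean of at least 5 TPM that reached 1 TPM in at least 20% of the cells, *Sox17* left out, 64 were at least 2-fold higher in Sox17-high cells (0.715% of the genes) and 61 at least 2-fold lower (0.682%). The median difference over all 8948 genes was -0.16, so a difference of 0 already lies above that of the typical gene. In the 68 cells, this median was 0.01 among the same genes, and with the filter applied anew 124 genes were higher and 62 lower; 59 of the 64 higher genes and 39 of the 61 lower genes were among them. Ranking within 3 strata of genes per cell gave 80 higher and 32 lower genes, with 58 and 29 shared. Of the 64 higher genes, 48 are protein coding, 4 are snoRNA and 3 miRNA genes, and of the 61 lower genes 35 are protein coding, 10 are miRNA and 5 snoRNA genes. TPM of such short genes rest on few positions.

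Transcription factors of endoderm stood highest in Sox17-high cells. Of 14 listed factors other than *Sox17*, 7 passed the filter, 5 were at least 2-fold higher (among them *Gata4*, *Foxq1*, *Foxa2* and *Sox7*) and 0 lower, and the median difference was 1.48 (1.71 in the 68 cells) against -0.16 over all genes. *Gata4*, the GATA factor that follows *Gata6* in this lineage (chromosome 14, 63198922 to 63271692), had 15.8, 62.8 and 106 TPM as lowest, median and highest value in Sox17-high cells, 3.78, 49.2 and 89.2 TPM in Sox17-middle cells and 0.895, 14.9 and 84.9 TPM in Sox17-low cells. The groups overlapped: 12 of 30 Sox17-low cells had at least as much *Gata4* as the lowest Sox17-high cell, and 11 were under 10 TPM. Its difference was 2.22, with SDs over cells of 0.60 and 1.62 on the log2 scale in Sox17-high and Sox17-low cells, and 2.58 in the 68 cells. The Sox17-low cells thus included cells with ample *Gata4* and cells nearly without it.

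*Foxa2*, a forkhead factor of endoderm (chromosome 2, 148042877 to 148046969), had 1.18, 13.4 and 22.5 TPM as lowest, median and highest value in Sox17-high cells, 1.15, 10.95 and 28.3 TPM in Sox17-middle cells and 0, 3.94 and 21.3 TPM in Sox17-low cells. It reached 1 TPM in 30 of 30 Sox17-high cells (exact binomial 95% interval 88.4 to 100%, counting error only), 31 of 31 Sox17-middle cells (88.8 to 100%) and 24 of 30 Sox17-low cells (61.4 to 92.3%), and its difference was 1.48. *Sox7*, the SOX F factor closest to *Sox17* in endoderm, had medians of 18.9, 16.5 and 7.18 TPM and a difference of 1.48 (2.21 in the 68 cells). *Foxq1*, another forkhead factor, had medians of 12.7, 9.72 and 2.38 TPM and a difference of 1.57. *Gata6* itself differed by 0.68 and *Klf6* by -0.57. Of the listed factors that did not pass the filter, *Hnf4a*, *Gata5*, *Gsc* and *Cited1* had a median of 0 TPM in both Sox17-high and Sox17-low cells, so at 12 h *Gata4*, *Foxa2* and *Sox7* accompanied *Sox17* and the later factor *Hnf4a* did not. *Sox2* and *Sox7* were the only ones of 18 other listed Sox genes to pass the filter.

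**Figure D2:**
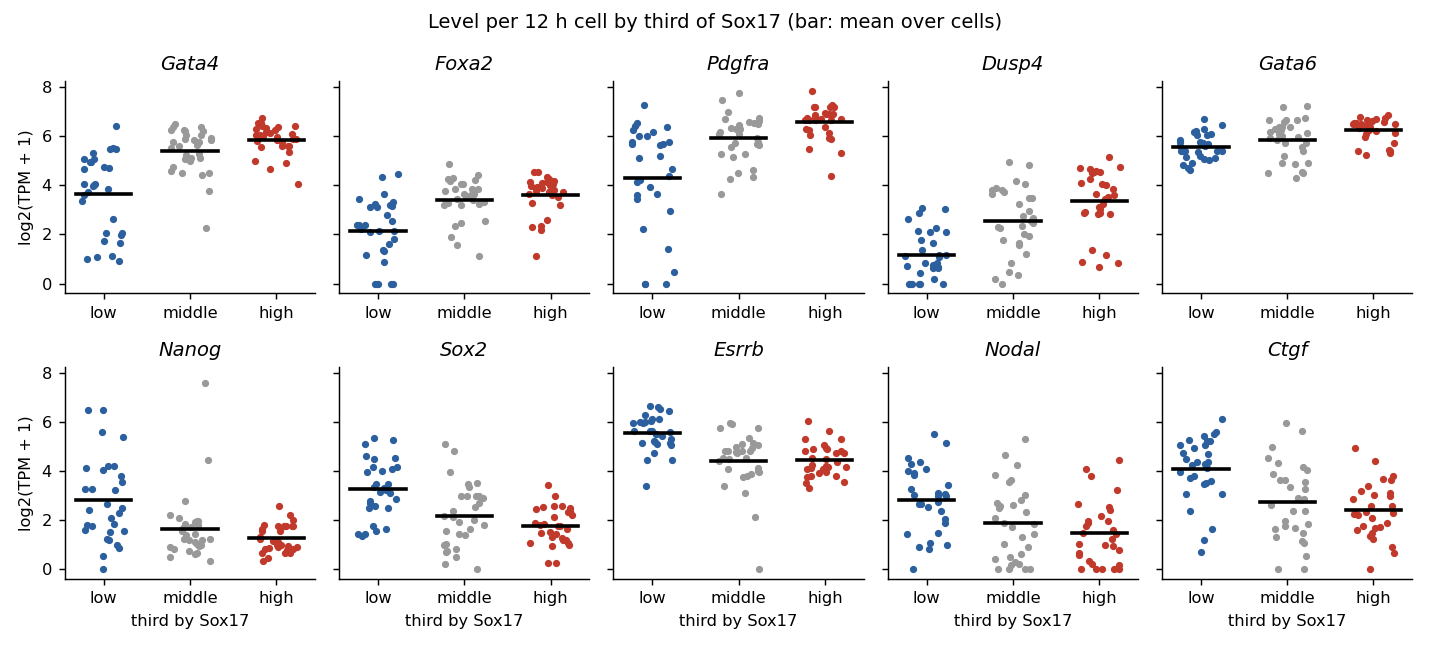
Levels as log2(TPM + 1) of 10 genes in each cell at 12 h, with cells grouped as Sox17-low (30 cells), Sox17-middle (31) and Sox17-high (30) along the x axis; bars are means over cells. *Gata4*, *Foxa2*, *Pdgfra* and *Dusp4* are lowest in Sox17-low cells, with differences of 1.48 to 2.27 between the outer groups, whereas *Nanog*, *Sox2*, *Esrrb*, *Nodal* and *Ctgf* are highest there, and every pair of groups overlaps.

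Receptors of the primitive endoderm surface went the same way. Among 8 listed receptors and adaptors, 5 passed the filter, 3 were at least 2-fold higher (*Pdgfra*, *Fgfr2* and *Cubn*) and 0 lower, with a median of 1.07. *Pdgfra*, the PDGF receptor that marks early primitive endoderm (chromosome 5, 75152292 to 75198215), had 19.8, 103 and 231 TPM as lowest, median and highest value in Sox17-high cells, 11.6, 68.02 and 215 TPM in Sox17-middle cells and 0, 29.2 and 154 TPM in Sox17-low cells. It was below 1 TPM in 4 of 30 Sox17-low and in 0 of 30 Sox17-high cells, and the difference was 2.27. *Fgfr2*, the FGF receptor enriched in primitive endoderm, had medians of 55.0, 53.1 and 31.2 TPM and a difference of 1.12. *Cubn*, the endocytic receptor cubilin, differed by 1.07, *Dab2*, an endocytic adaptor, by 0.67 (1.12 in the 68 cells) and *Lrp2*, which encodes megalin, by 0.12.

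Basement membrane genes stayed under 2-fold in the 91 cells, whereas 5 of 16 reached it in the 68 cells. All 16 listed genes passed the filter, and 0 were 2-fold higher or lower. A difference above 0 was found for 11 of the 16, against 2092 of all 8948 genes. The median of the 16 genes was 0.44 (0.70 in the 68 cells, where all genes had 0.01 and 1.26% of them were at least 2-fold higher). *P4ha1*, a collagen prolyl hydroxylase, differed by 0.93, *Col4a2* by 0.87, *Serpinh1*, the collagen chaperone, by 0.82, *Col4a1* by 0.72, *Lamb1* by 0.60 and *Lama1* by 0.54, whereas *Lama5* differed by -0.61 and *Nid2* by -0.53. In the 68 cells, *P4ha1*, *Col4a2*, *Serpinh1*, *Col4a1* and *Plod2* differed by 1.28, 1.16, 1.03, 1.02 and 1.02. Of 12 visceral endoderm genes, 3 passed the filter and 1, *Dkk1*, was higher, and *Afp*, *Ttr* and *Ihh* had medians of 0 TPM. Of 10 parietal endoderm genes, 2 passed and 0 differed by 2-fold. *Vim*, the intermediate filament vimentin, had medians of 428, 247 and 198 TPM in Sox17-high, Sox17-middle and Sox17-low cells and was the 1 of 6 keratin, vimentin and junction genes that was at least 2-fold higher (1.04).

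In the FGF and ERK pathway, 14 of 19 listed genes passed the filter, 3 were at least 2-fold higher (*Dusp4*, *Fgf3* and *Fgfr3*) and 0 lower, and the median of -0.06 was near that of all genes. *Dusp4*, a nuclear phosphatase of MAP kinases (chromosome 8, 34807297 to 34819894), had 0.577, 10.7 and 35.1 TPM as lowest, median and highest value in Sox17-high cells, 0, 4.89 and 29.8 TPM in Sox17-middle cells and 0, 0.951 and 7.48 TPM in Sox17-low cells, a difference of 2.18. *Fgf3*, an FGF ligand, had 2.07, 12.98 and 39.8 TPM in Sox17-high cells and 0, 2.80 and 17.8 TPM in Sox17-low cells, a difference of 1.82. *Fgfr3* differed by 1.05. The feedback genes *Spry2*, *Dusp6*, *Spred2* and *Etv5* differed by -0.57, -0.58, -0.41 and -0.11, and *Spry4* and *Etv4* by 0.10 and 0.47, so the listed ERK targets did not all lie on 1 side. Further signalling genes stood among the 15 largest differences. *Nrg1*, which encodes the ErbB ligand neuregulin 1, differed by 1.96, *Nrp2*, a co-receptor for semaphorins and VEGF, by 1.92 and *Dkk1*, a secreted Wnt inhibitor, by 1.86.

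Promoters are shown for 3 of the higher genes that have an entry in the RefSeq promoter table (GRCm38.p6, 250 bases before to 50 after an annotated start), because they were higher together in Sox17-high cells and their lineage is driven by GATA factors. Matches to AGATAA or TGATAA on either strand, core letters of the GATA motif, are in capitals. The start of *Fgf3* at chr7:144838362-144838661 (plus strand) has TTATCT from position -115, a start of *Foxa2* at chr2:148045415-148045714 (minus strand) has AGATAA from position -183, and the start of *Pdgfra* at chr5:75152001-75152300 (plus strand) has no match in this window. The other starts of *Foxa2* in the table (chr2:148045899-148046198 and chr2:148046920-148047219) and that of *Dkk1* (chr19:30549447-30549746, minus strand) have no match either and are not printed.
Fgf3: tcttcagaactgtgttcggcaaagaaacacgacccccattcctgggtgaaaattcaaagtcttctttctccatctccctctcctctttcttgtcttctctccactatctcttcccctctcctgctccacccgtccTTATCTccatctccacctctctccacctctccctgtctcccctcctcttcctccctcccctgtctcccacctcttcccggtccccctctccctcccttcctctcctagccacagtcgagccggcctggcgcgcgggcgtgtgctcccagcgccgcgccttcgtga
Foxa2: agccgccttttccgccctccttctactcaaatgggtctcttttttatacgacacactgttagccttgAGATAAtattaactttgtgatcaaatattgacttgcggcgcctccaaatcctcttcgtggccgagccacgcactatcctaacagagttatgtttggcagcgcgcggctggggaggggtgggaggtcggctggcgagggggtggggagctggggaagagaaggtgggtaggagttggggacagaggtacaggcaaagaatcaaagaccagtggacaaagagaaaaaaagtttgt
Pdgfra: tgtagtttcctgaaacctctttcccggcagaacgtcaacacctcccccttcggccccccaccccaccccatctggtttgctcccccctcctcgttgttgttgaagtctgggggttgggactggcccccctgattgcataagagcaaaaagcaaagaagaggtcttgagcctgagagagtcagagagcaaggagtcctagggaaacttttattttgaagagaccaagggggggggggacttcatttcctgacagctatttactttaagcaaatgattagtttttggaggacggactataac
In the table, 34 of the 64 higher genes and 26 of the 61 lower genes have an entry. A match was present in 23.8% of the 42 promoters of the higher genes, 9.76% of the 41 promoters of the lower genes, 9.68% of the 7679 promoters of genes that passed the filter and 18.6% of all 32851 promoters in the table. The share for the higher genes rests on 10 promoters of 7 genes, several of which are alternative starts of 1 gene. Counted per gene, a match was present in 20.6% of the 34 higher genes, 11.5% of the 26 lower genes, 11.3% of the genes that passed the filter and 20.96% of all genes in the table. The higher genes were drawn from those that passed the filter, so 11.3% is the matching share. The 20.6% rests on 7 genes, and the difference was not tested. A match is not a bound site. The SOX core letters AACAAT, on either strand, were in 2.38%, 2.44%, 5.91% and 10.7% of the same promoters.

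Only some pluripotency factors differed. Of 22 listed genes, 19 passed the filter, 6 were at least 2-fold lower in Sox17-high cells (*Nanog*, *Sox2*, *Nr5a2*, *Tdgf1*, *Tfcp2l1* and *Esrrb*) and 0 higher, with a median of -0.43 (-0.19 in the 68 cells). *Nanog*, the homeobox factor that opposes *Gata6* (chromosome 6, 122707489 to 122714633), had 0.243, 1.19 and 4.96 TPM as lowest, median and highest value in Sox17-high cells, 0.252, 1.59 and 194 TPM in Sox17-middle cells and 0, 4.45 and 88.03 TPM in Sox17-low cells, against a median of 105 TPM at 0 h. *Nanog* reached 10 TPM in 10 of 30 Sox17-low cells, 2 of 31 Sox17-middle cells and 0 of 30 Sox17-high cells, and the difference was -1.56. *Sox2*, partner of OCT4 (chromosome 3, 34650405 to 34652461), had 0.191, 2.37 and 9.87 TPM in Sox17-high cells and 1.56, 8.60 and 39.7 TPM in Sox17-low cells, a difference of -1.50. *Esrrb*, an orphan receptor of the naive state, had 8.90, 18.8 and 63.9 TPM in Sox17-high cells and 9.38, 47.4 and 101 TPM in Sox17-low cells, a difference of -1.12. *Nr5a2*, a nuclear receptor, differed by -1.40, *Tdgf1*, a Nodal co-receptor, by -1.15 and *Tfcp2l1*, a LIF-dependent factor, by -1.14 (-0.89 in the 68 cells). In contrast, *Pou5f1*, *Klf5*, *Tbx3*, *Sall4* and *Klf4* differed by -0.20, 0.02, 0.06, 0.30 and 0.36. At 12 h, therefore, Sox17-high and Sox17-low cells had like levels of *Pou5f1* and *Klf5* and unlike levels of *Nanog* and *Sox2*. Of the formative and primed epiblast list, 3 of 12 passed the filter, among them the DNA methyltransferase genes *Dnmt3a* and *Dnmt3b*, with differences of 0.59 and 0.35.

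*Nodal* and *Bmp4* were lower in Sox17-high cells, while most other genes of their pathway lists were not. *Nodal*, the TGF-beta ligand, had 0, 1.51 and 20.6 TPM as lowest, median and highest value in Sox17-high cells and 0, 6.91 and 44.4 TPM in Sox17-low cells, a difference of -1.36. Together with *Smad7*, an inhibitory SMAD (-1.03, and -0.76 in the 68 cells), it was 1 of 2 lower genes among 9 Nodal and Activin genes that passed the filter, whose median was -0.15. *Bmp4* had medians of 3.92 and 8.68 TPM in Sox17-high and Sox17-low cells and differed by -1.20, the 1 lower gene of 5 in the BMP list, whose median was -0.11. None of 6 Wnt pathway genes and none of 6 LIF and STAT3 genes that passed the filter differed by 2-fold, with medians of -0.20 and -0.09.

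**Figure D3:**
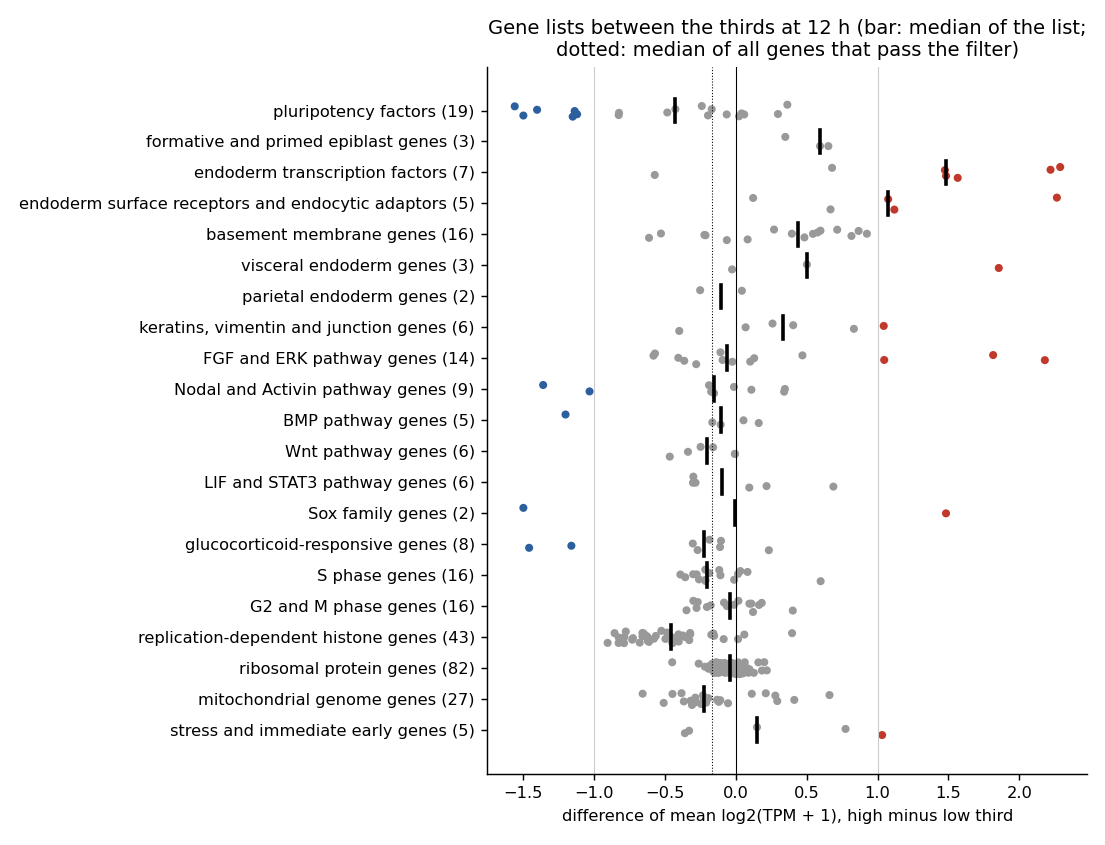
Difference of mean log2(TPM + 1), Sox17-high minus Sox17-low cells, for each listed gene that passed the filter (points; number of genes in parentheses), with the median of a list as a bar and the median of all 8948 genes, -0.16, as a dotted line. Points are coloured at or beyond 1 and -1. Endoderm transcription factors (median 1.48) and endoderm surface receptors (1.07) lie to the right, and 6 of 19 pluripotency factors lie beyond -1.

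Among the 15 largest positive differences were further genes outside the lists. *Fam213a*, which encodes a peroxiredoxin-like protein, had 1.94, 26.9 and 74.7 TPM as lowest, median and highest value in Sox17-high cells and 0, 3.56 and 37.5 TPM in Sox17-low cells, a difference of 2.34. *Eva1a*, a gene linked to autophagy, had medians of 18.4 and 1.67 TPM and a difference of 2.30 (2.84 in the 68 cells). *Akr1c13*, an aldo-keto reductase with close paralogs, so that its reads may be shared, differed by 1.86, *Emb*, which encodes the adhesion protein embigin, by 1.75, *Stard8*, which encodes a small GTPase regulator, by 1.69 and *C2cd4a* by 1.62. The largest difference, 2.54, belonged to *Gm26992* (chromosome X, 103422010 to 103481705, plus strand), with 0, 21.6 and 122 TPM in Sox17-high cells, 0, 5.05 and 330.2 TPM in Sox17-middle cells and 0, 0.461 and 79.5 TPM in Sox17-low cells. It overlaps *Xist* on the other strand and *Tsix* on its own strand, and reads were counted without strand, so its level cannot be told apart from that of its neighbours. *Xist* itself had medians of 13.4, 11.6 and 11.3 TPM. The coefficient of *Gm26992* with *Sox17* was 0.34, lower than for any other of the 15 genes, whose coefficient ran from 0.48 for *C2cd4a* to 0.71 for *Gata4*.

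On the lower side, the largest difference belonged to *Ctgf*, a matricellular gene known as a target of YAP (chromosome 10, 24595442 to 24598683), with 0, 3.88 and 29.95 TPM as lowest, median and highest value in Sox17-high cells and 0.642, 18.97 and 69.5 TPM in Sox17-low cells, a difference of -1.70. *Syne2*, which encodes the nuclear envelope protein nesprin-2, had medians of 4.85 and 22.02 TPM and a difference of -1.68. *Jam2*, a junctional adhesion molecule, had medians of 16.997 and 55.0 TPM and a difference of -1.67. *Msc*, a bHLH repressor, and *Cldn4*, a claudin of tight junctions, both differed by -1.52. The metallothionein genes *Mt2* and *Mt1* differed by -1.46 and -1.16 (-1.03 and -0.91 in the 68 cells) and were the 2 lower genes among 8 of the glucocorticoid-responsive list, whose median was -0.23. In that list *Fkbp5* differed by -0.19, *Per1* by -0.30 and *Sgk1* by 0.23. The remaining names among the 15 largest were *Gm44453* and *Gm22692* (annotated as miRNA genes), *Gm25394* (snoRNA), *n-R5s97* (rRNA) and *Gm29397* (processed pseudogene), with differences of -1.57, -1.43, -1.37, -1.48 and -1.47. In the 68 cells, *Gm29397* differed by -0.72. Of these short genes, *Gm44453* ranged from 0 to 164 TPM in Sox17-high cells and from 0 to 169 TPM in Sox17-low cells.

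The likeness of each gene to *Sox17* was then measured over all 91 cells as Spearman coefficient, which is independent of where the groups were split but uses the same cells. The 10 genes with the highest coefficient included *Gata4* (0.71), *Dusp4* (0.64), *Pdgfra* (0.63), *Eva1a* (0.63), *Dkk1* (0.62), *Fam213a* (0.60), *Bend5* (0.59), *Foxa2* (0.58) and *Nrg1* (0.58). The 10 with the lowest were *Sema4b* (-0.64), *Esrrb* (-0.61), *Tfcp2l1* (-0.58), *Rfx2* (-0.58), *Aff1* (-0.57), *Ctgf* (-0.55), *Tgif1* (-0.55), *Gabarapl2* (-0.54), *Syne2* (-0.54) and *Sox2* (-0.54). The median coefficient over all 8948 genes was -0.10. Points share depth and composition effects of their libraries. All 20 genes kept their sign in the 82 cells with at least 0.1 TPM of *Sox17*, with sizes of 0.44 to 0.64. These are a subset of the cells that chose the genes. In the 68 cells, sizes were 0.50 to 0.78. *Sema4b*, a semaphorin, had 1.76, 11.9 and 27.4 TPM as lowest, median and highest value in Sox17-high cells and 4.68, 27.9 and 54.5 TPM in Sox17-low cells, and *Tgif1*, a homeobox co-repressor of TGF-beta signalling, had medians of 14.3 and 30.9 TPM.

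The S phase list and the G2 and M phase list did not separate the groups. Replication-dependent histone genes, by their median, were lower in Sox17-high cells by more than the typical gene, though by less than 2-fold. Whether the groups differed in cell cycle phase was not tested. None of 16 S phase genes and none of 16 G2 and M phase genes differed by 2-fold, and their medians were -0.20 and -0.04 (-0.01 and 0.22 in the 68 cells). *Ccne1*, cyclin E1, differed by 0.60. Of 43 replication-dependent histone genes that passed the filter, 0 differed by 2-fold and 3 had a difference above 0, against 2092 of all 8948 genes. Their median was -0.46 (-0.59 in the 68 cells, where 3 were 2-fold lower, against 0.615% of all genes). Their summed level had a median of 1157 TPM (range 78.3 to 5274 TPM) in Sox17-high and 1930 TPM (107 to 3502 TPM) in Sox17-low cells. Medians were -0.04 for 82 ribosomal protein genes, -0.23 for 27 genes of the mitochondrial genome and 0.15 for 5 stress and immediate early genes, of which *Gadd45a* was higher (1.03).

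The genes that differed at 12 h were then followed in cells that the ranking did not use. Of the 64 higher genes, 35 (54.7%) were also at least 2-fold higher at 24 h than at 0 h, against 8.21% of all 8948 genes, and 1 was at least 2-fold lower. Of the 61 lower genes, 27 (44.3%) were at least 2-fold lower at 24 h than at 0 h, against 5.06% of all genes, and 1 was at least 2-fold higher. Median differences of 24 h minus 0 h were 1.62, -0.58 and 0.16 for the higher, the lower and all genes, with 1 culture per time and no test. At 72 h, 34 of the 64 (53.1%, against 11.3% of all genes) were higher and 34 of the 61 (55.7%, against 14.2%) lower than at 0 h, while 6 of the 64 (9.38%) were at least 2-fold lower and 1 of the 61 (1.64%) higher. A difference above 0 was found for 55 of the 64 at 24 h and 44 at 72 h, against 5769 and 3974 of all 8948 genes. For the 61 lower genes, the count was 15 at 24 h and 15 at 72 h. Both comparisons share the 0 h cells. *Gata4*, *Pdgfra* and *Foxa2* differed by 6.40, 7.23 and 3.55 on the log2 scale at 24 h against 0 h, and *Nanog*, *Sox2* and *Nodal* by -5.27, -4.84 and -3.19.

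Of the 29 higher genes that were not 2-fold higher at 24 h than at 0 h, 20 had a difference in the same direction and 9 in the opposite one. Of the 34 such lower genes, these counts were 19 and 15. The genes that follow were picked as exceptions or for their course over time. *Slc7a7*, an amino acid transporter, was higher in Sox17-high cells by 1.47 although its median was 39.3 TPM at 0 h, 8.54 TPM at 12 h and 0.996 TPM at 24 h. *Nrp2* (1.92 at 12 h) differed by -0.94 and *Myc* (1.31 at 12 h) by -0.99 at 24 h against 0 h. *Dusp4* had medians of 1.10, 4.56, 4.27, 0.845 and 0 TPM at 0, 12, 24, 48 and 72 h and so was highest at 12 and 24 h. *Vim* had 292, 302, 465, 22.2 and 25.99 TPM at these times. *Ctgf*, lower in Sox17-high cells, had 4.23, 7.37, 2.65, 5.53 and 47.05 TPM and so was at its highest at 72 h. *Gabarapl2*, an ATG8 family gene of autophagy, was lower by 1.09 in Sox17-high cells on the log2 scale, yet 0.62 higher at 24 h than at 0 h.

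**Figure D4:**
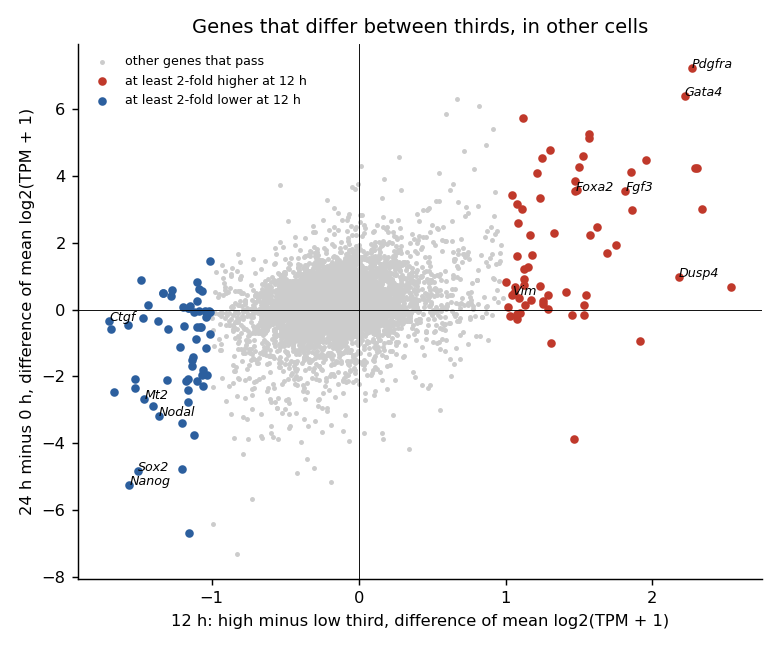
For each of 8948 genes, the difference of mean log2(TPM + 1) between Sox17-high and Sox17-low cells at 12 h (x axis) and between 24 h and 0 h (y axis). Of the 64 genes to the right (red), 35 are at or above 1 on the y axis, and of the 61 to the left (blue) 27 are at or below -1.

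ES cells and primitive endoderm cells were also sorted side by side on 4 plates, with 384 cells in all. The paper used these plates to gauge variation between plates and prepared them with a modified RamDA-seq protocol. They thus differ in preparation from the 12 h cells. The paper does not describe the 4 plates as separate cultures, so they are not counted as replicates. On plates B1, B2, E1 and E2, 40 of the 64 higher genes (62.5%, against 43.8% of all genes) had a higher mean in primitive endoderm than in ES cells on all 4 plates, and 13 had a lower mean on all 4. Of the 61 lower genes, 37 (60.7%, against 26.5%) were lower in primitive endoderm on all 4 plates and 9 higher. Median differences of primitive endoderm minus ES cells were 1.51, 1.33, 1.41 and 1.44 for the higher genes and -1.44, -1.03, -1.41 and -1.43 for the lower genes on B1, B2, E1 and E2, against 0.29, 0.29, 0.13 and -0.05 for all genes. *Gata4* was higher in primitive endoderm by 6.73 to 7.44 on the log2 scale over the 4 plates and *Foxa2* by 4.29 to 4.64. *Ctgf* was higher in primitive endoderm, by 2.09 to 2.38, and *Vim* and *Slc7a7* lower, by -3.05 to -1.98 and -4.07 to -3.36.

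The same split was then made at later times. The median *Sox17* of the highest and lowest cells was 122 and 32.5 TPM at 24 h (31 cells each), 117 and 46.6 TPM at 48 h (29 each) and 152 and 69.1 TPM at 72 h (31 each), so the groups lay 3.76-fold, 2.51-fold and 2.19-fold apart, against 59.6-fold at 12 h. In TPM, the gap between the medians was 89.9, 70.4 and 82.4 TPM, against 69.5 TPM at 12 h. Of the 64 genes higher at 12 h, 5 were at least 2-fold higher at 24 h (0.603% of all genes were), 8 at 48 h (1.27%) and 0 at 72 h (0.492%). Of the 61 lower genes, 2, 1 and 0 were at least 2-fold lower (0.279%, 0.324% and 0.57% of all genes). In the opposite direction, 1, 0 and 5 of the 64 were at least 2-fold lower at these times, and 2, 3 and 3 of the 61 at least 2-fold higher. Medians of the 64 genes were 0.49, 0.42 and -0.04 at 24, 48 and 72 h, and those of the 61 genes -0.13, 0.04 and -0.02, against 0.19, 0.27 and 0.04 for all genes. *Gata4* differed by 0.83, 0.83 and 0.35, *Pdgfra* by 0.62, 0.66 and -0.07, *Nanog* by -0.55, -0.28 and -0.08 and *Myc* by 1.48, 2.28 and 0.50. *Sox7* differed by 0.81, 1.44 and 0.42, and *Ctgf*, lower at 12 h, by 0.34, 1.53 and 2.42. The 64 and 61 genes were chosen by their difference at 12 h, so smaller differences at other times are not evidence of a change with time.

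Finally, a score from ES cells to endoderm was given to each cell, taken as the mean log2(TPM + 1) of the 100 genes with the largest gain from 0 h to 72 h minus that of the 100 with the largest loss, *Sox17* left out. Of the 100 gaining genes, 49 passed the filter at 12 h, and 17 of these were among the 64 higher ones. Of the 100 losing genes, 88 passed, and 11 of these were among the 61 lower ones. Over all genes that passed, 0.715% were higher and 0.682% lower. Lowest, median and highest scores were -2.49, -1.23 and -0.66 in Sox17-high cells, -2.60, -1.37 and 0.06 in Sox17-middle cells and -3.44, -2.22 and -1.33 in Sox17-low cells. Mean scores were -1.29 ± 0.36, -1.34 ± 0.54 and -2.27 ± 0.57 (SD over cells), against -4.83 ± 0.22 at 0 h, 0.87 ± 0.89 at 24 h and 5.04 ± 0.54 at 72 h. All 91 cells, the Sox17-low ones included, lay above every 0 h cell. The mean of Sox17-high cells stood at 35.9% of the distance from 0 h to 72 h and that of Sox17-low cells at 25.97%. The groups overlapped, with 19 of 30 Sox17-high cells above every Sox17-low cell, and 29 of 30 Sox17-high and 19 of 30 Sox17-low cells reached the lowest 24 h cell. That cell, at -2.40, lay far below the 24 h median of 1.06, which no 12 h cell reached. The difference of 0.98 came from both parts, 0.56 from the gaining and -0.42 from the losing genes, and coefficient with *Sox17* was 0.65.

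**Figure D5:**
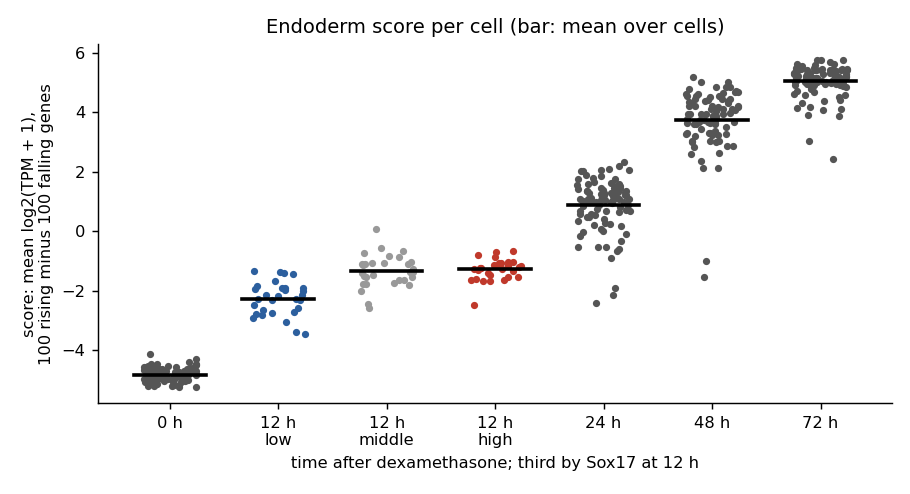
Endoderm score of each cell (mean log2(TPM + 1) of 100 genes that gain minus 100 that lose between 0 h and 72 h) by time, with the 12 h cells grouped by *Sox17*; bars are means. Sox17-middle (-1.34) and Sox17-high cells (-1.29) have near-equal means, and Sox17-low cells lie lower (-2.27).

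Sox17-middle cells resembled Sox17-high cells more than Sox17-low cells. The median step of the 64 higher genes was 0.96 from Sox17-low to Sox17-middle and 0.41 from Sox17-middle to Sox17-high cells, and that of the 61 lower genes -0.85 and -0.35. The former step was the larger one for 49 of the 64 genes (76.6%) and 51 of the 61 (83.6%), but also for 72.1% of all 8948 genes, so this order is not particular to the sets. Within the Sox17-low cells, the 9 cells at 0 had a median *Gata4* of 2.32 TPM (0.895 to 43.3 TPM), against 15.7 TPM (1.14 to 84.9 TPM) in the 21 others, a median *Gata6* of 35.4 against 51.6 TPM, and a median *Nanog* of 16.4 against 2.62 TPM. The ranges of all 3 genes overlapped between these cells.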

How the data were processed

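The values are deposited TPM per transcript, which carry no depth. Per the paper's methods and the labels, the authors trimmed the reads, quantified them with Sailfish without strand (library type U) on GENCODE vM9 (mm10), and left outlier cells by uniquely mapped reads and rRNA share out of later steps. The merged table holds fewer cells, and whether these rules chose them is not given in the sources used here. For that table, models were assembled with HISAT2 2.0.1 and Cufflinks 2.2.1 as named in the submitters' processing notes. Transcript TPM were summed here per gene name (47517 genes) with Python 3.11.15, numpy 2.4.6 and pandas 2.3.3, after tests on simulated data. Differences are those of mean log2(TPM + 1). No test was run, since cells of a time are 1 sample, and intervals cover counting error only.

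Members, lists and rules were chosen with earlier results of these data known. Genes are named as list members, as the 15 largest differences in each direction, or as the 10 highest and 10 lowest Spearman coefficients, and some are not reported here. *Slc7a7*, *Myc*, *Xist* and *Tsix* were named after their values were seen. Alternatives were another pseudocount, filters, summary, split, table and set of cells. Tables of other RNA inputs and of C1 cells were not used here.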

Additional observations from a re-analysis of the deposited data

How the results depend on the processing

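The counts of genes at least 2-fold higher and lower in Sox17-high cells, 64 and 61, depended on the scale and on the split. They were 132 and 194 with a pseudocount of 0.1 TPM, 109 and 149 with differences of medians, and 159 and 214 when the 9 cells under 0.1 TPM of *Sox17* were the low group. They were 20 and 25 with a minimum mean of 20 TPM and 36 and 29 with the 45 highest and 45 lowest cells, and the 22 highest and lowest cells gave 102 lower genes. The merged table of 68 cells gave 164 higher and 90 lower genes, among them 52 of the 64 higher but only 26 of the 61 lower genes. The same 68 cells gave 124 higher genes on GENCODE models (chosen after seeing the data), and ranking within strata of genes per cell 32 lower genes. Fewer genes were tested with the stricter filter. For the other counts, the cause was not tested. Over up to 13 alternatives, 10 of the 21 list medians kept their sign, endoderm transcription factors, endoderm surface receptors, basement membrane genes and pluripotency factors among them. The other 11, all with a size of at most 0.23, had the other sign under at least 1 alternative, from -0.34 to 0.40 for stress and immediate early genes, -0.33 to 0.34 for the BMP list, -0.17 to 0.18 for the Nodal and Activin list, -0.30 to 0.17 for the FGF and ERK list and -0.31 to 0.25 for G2 and M phase genes. None of the differences changed sign for the 39 genes named for the largest differences or coefficients. These genes were chosen by size in the same cells, and a filter leaves a gene's own difference unchanged. Their kept sign is therefore no support for them. The lists were followed in the same 12 h cells too, with signs taken against 0 and not against the median of all genes. A kept sign is thus no independent support for a list either. Other named genes were not followed over the alternatives. *Akr1c13* was 3.36 with a pseudocount of 0.1 TPM, *Gm25394* was -3.08 with medians, and without a filter the medians of the endoderm transcription factors and of the formative and primed epiblast list were 0.40 and 0.04. The median of the glucocorticoid-responsive list was -1.16 with a minimum mean of 20 TPM. The score difference and the shares at 24 h stayed near their values. TPM give no depth, so a 0 is only a listed 0. No paired analysis was possible because the groups hold different cells, and the labels name no separate cultures at 12 h.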
